A study of Mus musculus with 4 samples.

Results

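A set of 10 genes that mark macrophages was followed in a ChIP-seq study of histone H3 propionylated at lysine 23 (H3K23pr) in the mouse heart. They were Emr1 (Adgre1 in RefSeq), Csf1r, Laptm5, Cd68, Lyz2, Aif1, Ly86, Mrc1, Cd163 and Lyve1. They were chosen by name, with earlier results of these data known, so the choice was not independent of the values. Every merged region that listed one of these genes was taken, which gave 21 regions of 29210 for 10 of the 17640 genes in the table. Each gene was represented by the region whose middle lies nearest to its transcription start, and for all 10 genes that region held the start. The hearts came from male C57Bl/6J mice aged 12 weeks, which were fed a BCAA-control diet, with all essential amino acids, or a BCAA-free one, from which leucine, isoleucine and valine were left out. The diets began 4 days before surgery, which was sham or TAC (transverse aortic constriction, a narrowing of the aorta that loads the left ventricle with pressure), and hearts were taken 1 week after surgery. Each of the 4 groups (control sham, control TAC, BCAA-free sham and BCAA-free TAC) had 1 library, made from a pool of 3 hearts. There is therefore no replicate error, no test of diet or surgery was made, and the words higher and lower compare libraries.

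Macrophages are phagocytes that live in the healthy heart, where many descend from embryonic precursors, and that are joined by monocyte-derived cells when the heart is injured or overloaded. Resident heart macrophages are known for the scavenger and uptake receptors encoded by Mrc1, Cd163 and Lyve1, whereas Emr1, Csf1r, Cd68 and Aif1 mark macrophages of many tissues. Acyl marks on lysines of histone H3, propionylation among them, are found at active promoters and enhancers, and the propionyl group comes from propionyl-CoA, a product of isoleucine and valine breakdown. The signal here is the average density of sequenced fragments over a region, so it can be compared between regions of different length. Heart chromatin of all cells together was used, so more macrophages in a heart and more of the mark per macrophage cannot be told apart.

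The promoters of these genes differ from the usual promoter in the table. A CpG island lay in the region nearest to the start for 1 of the 10 genes, Cd68, against 72.8% of all genes. That region lists 7 genes, so its island cannot be placed at the Cd68 promoter. Promoter sequences from 250 bases before to 50 bases after the start were found in RefSeq (build GRCm38.p6) for 7 genes, and not for Emr1, Csf1r and Lyve1. They held a median of 3 CpG dinucleotides (1 to 13), against 7 over 32817 promoters. The Cd68 promoter held 4. The promoters of 5 genes are shown to let the reader see these starts: those of the 4 genes that hold the core GAGGAA bound by PU.1, a transcription factor of myeloid cells, and that of Ly86, which has the highest TAC ratio of the 10 on the control diet and no such core. Capitals mark GAGGAA on either strand (TTCCTC where it lies on the other strand), and each sequence runs 5′ to 3′ along the gene, with 50 bases after the RefSeq start.
Laptm5 (chr4:130913066-130913365, plus strand): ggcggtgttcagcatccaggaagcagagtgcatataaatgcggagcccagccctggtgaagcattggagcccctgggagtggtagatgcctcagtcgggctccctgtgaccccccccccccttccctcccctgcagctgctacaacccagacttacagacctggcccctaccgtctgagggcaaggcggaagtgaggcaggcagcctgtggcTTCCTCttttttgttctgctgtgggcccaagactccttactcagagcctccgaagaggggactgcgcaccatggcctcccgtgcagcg
Aif1 (chr17:35176003-35176302, minus strand): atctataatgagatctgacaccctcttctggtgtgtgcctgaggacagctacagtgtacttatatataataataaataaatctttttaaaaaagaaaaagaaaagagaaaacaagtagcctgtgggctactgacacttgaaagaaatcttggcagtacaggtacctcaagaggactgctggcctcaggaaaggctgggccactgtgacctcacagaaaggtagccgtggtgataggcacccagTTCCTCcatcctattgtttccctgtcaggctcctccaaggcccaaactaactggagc
Mrc1 (chr2:14229164-14229463, plus strand): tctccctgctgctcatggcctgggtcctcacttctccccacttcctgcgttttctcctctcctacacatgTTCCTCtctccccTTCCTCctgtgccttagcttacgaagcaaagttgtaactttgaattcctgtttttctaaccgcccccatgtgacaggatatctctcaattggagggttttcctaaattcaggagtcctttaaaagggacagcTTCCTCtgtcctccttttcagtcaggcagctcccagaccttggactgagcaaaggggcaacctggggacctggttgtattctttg
Cd68 (chr11:69666121-69666420, minus strand): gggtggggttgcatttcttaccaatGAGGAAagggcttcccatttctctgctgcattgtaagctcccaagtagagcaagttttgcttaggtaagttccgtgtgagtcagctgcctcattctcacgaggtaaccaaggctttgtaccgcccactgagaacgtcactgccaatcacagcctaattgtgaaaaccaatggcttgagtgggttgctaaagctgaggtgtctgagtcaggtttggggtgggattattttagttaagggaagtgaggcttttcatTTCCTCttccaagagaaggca
Ly86 (chr13:37345095-37345394, plus strand): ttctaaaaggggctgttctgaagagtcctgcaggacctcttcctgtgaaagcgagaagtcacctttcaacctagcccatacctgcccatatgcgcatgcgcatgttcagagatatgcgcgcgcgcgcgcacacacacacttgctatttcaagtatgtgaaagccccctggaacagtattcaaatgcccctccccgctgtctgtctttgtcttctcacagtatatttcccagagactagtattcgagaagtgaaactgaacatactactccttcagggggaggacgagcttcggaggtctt
The core was in 4 of the 7 promoters and in 28.3% of all promoters. The Mrc1 promoter holds 3 copies, which begin 180, 167 and 35 bases before the start. The Laptm5 copy begins 38 bases before the start and the Aif1 copy 7 bases before it. The C/EBP motif TTGCNNAA was in 1 of the 7 promoters (Cd68) and in 10.8% of all. The AP-1 motif TGANTCA was also in Cd68 alone, against 7.81% of all promoters. The core of the MAF motif, TGCTGAC, was in 0 of 7 and in 4.67% of all. Both strands were searched for each motif. A match is a string of letters and not a binding site.

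On the control diet, the macrophage genes had more H3K23pr after TAC than after sham surgery. The log2 ratio of TAC over sham, computed as log2((TAC + 1)/(sham + 1)), was above 0 for 10 of 10 genes, against 59.4% of all genes. Its median over the genes was 0.59 (0.11 to 0.86), against 0.05 over all genes. At least 1.5-fold (0.58 on the log2 scale) was reached by 5 of 10 genes, namely Ly86, Aif1, Emr1, Cd163 and Csf1r, against 2.83% of all genes, and 0 were lower by as much (2.1% of all genes). The 95% counting interval, which comes from the estimated number of sequenced tags and covers counting error only, lay above 0 for 9 of 10 genes (22.6% of all genes) and below 0 for 0 (14.8%). On the BCAA-free diet the median was 0.27 (−0.11 to 0.74), against −0.03 over all genes. There the ratio was above 0 for 9 of 10 genes (43.0% of all genes), and 1 gene, Aif1, passed 1.5-fold, against 0.85% of all genes, with 0 lower by as much (0.68%). The counting interval lay above 0 for 7 of 10 (10.6% of all genes) and below 0 for 0 (18.0%). With peak height in place of average signal, the medians were 0.46 on the control diet and 0.59 on the BCAA-free diet. On the control diet 9 of 10 genes were then above 0 (55.6% of all genes), with Lyve1 at −0.11, and 4 passed 1.5-fold (8.29% of all genes). In both TAC libraries the signal exceeded that of both sham libraries for 8 of 10 genes, all but Emr1 and Cd68, against 24.0% of all genes.

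**Figure D1:**
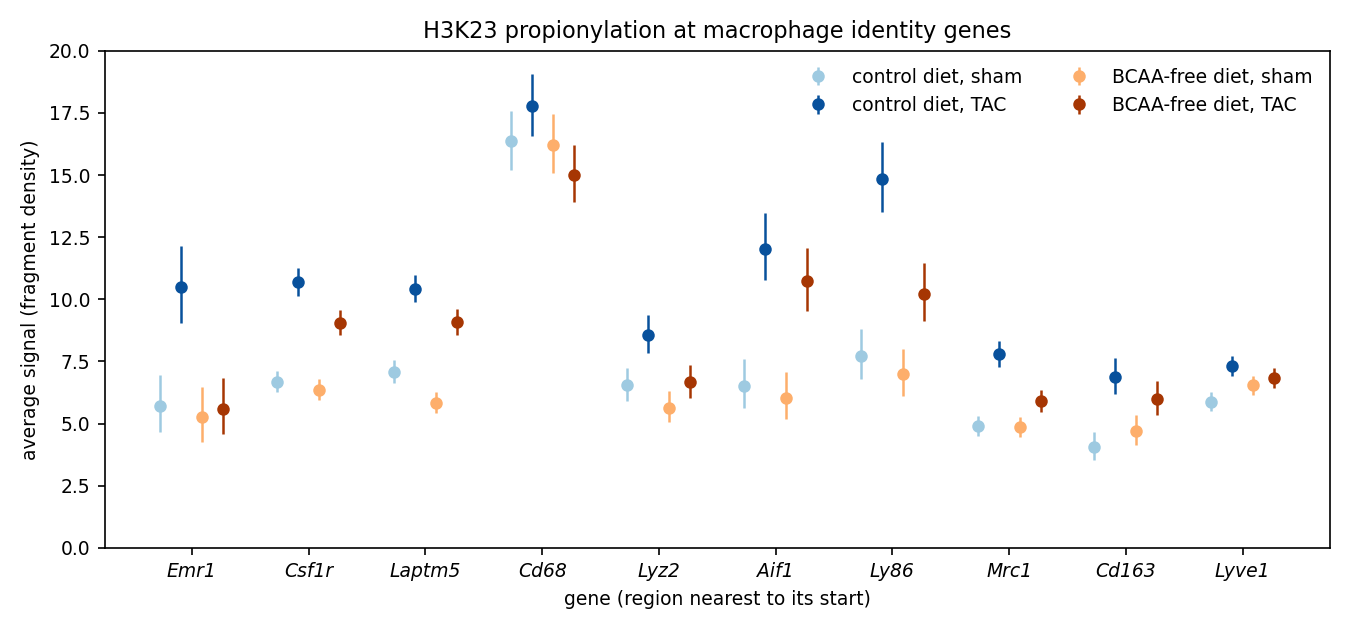
Average H3K23pr signal (fragment density, vertical axis) in the region nearest to the start of each gene (horizontal axis), in the 4 libraries. Points are single libraries and bars are 95% intervals from counting error only; the control TAC library (dark blue) is highest for all 10 genes.

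Csf1r encodes the receptor for colony-stimulating factor 1, on which macrophages depend for survival. Its nearest region spans 30800 bases (chromosome 18, 61085200 to 61115999 in mm10), also lists the neighbouring receptor gene Pdgfrb and ends inside Csf1r. The signal was 6.67 in control sham, 10.7 in control TAC, 6.36 in BCAA-free sham and 9.04 in BCAA-free TAC. The 2 sham libraries lay close together, and both TAC libraries lay above them. The TAC ratio was 0.61 (95% counting interval 0.50 to 0.71) on the control diet and 0.45 (0.34 to 0.56) on the BCAA-free diet. A second region inside the gene, 9400 bases long and also listing Hmgxb3, had ratios of 0.54 and 0.29.

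Emr1 encodes an adhesion G protein-coupled receptor, the classical surface antigen of mouse macrophages. Its nearest region is 3800 bases long (chromosome 17, 57356800 to 57360599), is centred 13 bases from the start and lists no other gene. The signal was 5.69 in control sham, 10.5 in control TAC, 5.26 in BCAA-free sham and 5.60 in BCAA-free TAC. Control TAC stood alone, and the counting intervals of the other 3 libraries overlapped. The TAC ratio was 0.78 (0.47 to 1.09) on the control diet and 0.08 (−0.28 to 0.43) on the BCAA-free diet. A peak was called there in both control-diet libraries and in neither BCAA-free library. The region is therefore in the table only through the control-diet libraries, and its values are no support for a difference between diets. A second region, centred 9487 bases upstream, was also highest in control TAC, with 4.52 in control sham, 7.81 in control TAC, 5.24 in BCAA-free sham and 5.74 in BCAA-free TAC. Its ratios were 0.67 on the control diet and 0.11 on the BCAA-free diet, and no peak was called there in control sham. These 2 regions rest on 89.1 to 178 estimated tags per library, among the lowest depths of the 21 regions.

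Laptm5 encodes a lysosomal membrane protein of blood cells. Its single region covers 30000 bases (chromosome 4, 130894600 to 130924599), lists no other gene and reaches from upstream of the start into the gene. The signal was 7.08 in control sham, 10.4 in control TAC, 5.83 in BCAA-free sham and 9.07 in BCAA-free TAC. The TAC ratio was 0.50 (0.39 to 0.61) on the control diet and 0.56 (0.45 to 0.67) on the BCAA-free diet. It was the 1 gene of the 10 with a larger TAC ratio on the BCAA-free diet. BCAA-free sham was the lowest of its 4 libraries, and its ratio to control sham, −0.24 (−0.36 to −0.12), was the lowest of the 10 genes for that comparison.

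Aif1 encodes a calcium-binding adaptor used as a macrophage and microglia marker. The region at its start (chromosome 17, 35170800 to 35176599) spans the gene and also lists Prrc2a and Lst1. The signal was 6.53 in control sham, 12.0 in control TAC, 6.04 in BCAA-free sham and 10.7 in BCAA-free TAC. Its TAC ratios of 0.79 (0.55 to 1.03) and 0.74 (0.49 to 0.99) differed by less than counting error. The pattern differed in the neighbouring regions that list the gene. The next region downstream, which lists Prrc2a and holds a CpG island, had 11.4, 10.5, 11.3 and 9.90 in the same order, and its ratios were −0.12 and −0.18. Upstream, a region of 21600 bases that lists the cytokine genes Ltb, Tnf and Lta beside Lst1 had ratios of 0.42 and 0.24.

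Ly86 encodes a secreted partner of the Toll-like receptor homologue RP105 and had the highest TAC ratio of the 10 genes on the control diet. The region at its start (chromosome 13, 37343800 to 37350399) had a signal of 7.74 in control sham, 14.9 in control TAC, 6.99 in BCAA-free sham and 10.2 in BCAA-free TAC. The ratio was 0.86 (0.65 to 1.07) on the control diet, rank 93 of 17640 genes, and 0.49 (0.26 to 0.72) on the BCAA-free diet. Ly86 and no other gene is listed by 4 regions, centred from 12646 bases upstream to 9954 bases downstream. In all 4 both TAC ratios were above 0, from 0.47 to 0.86 on the control diet and from 0.23 to 0.49 on the BCAA-free diet. The region centred 6846 bases upstream had a peak call in both TAC libraries and in neither sham library. It is therefore in the table only through the libraries where it is high, and its ratios are no support for a difference. The region at the start had the highest signal and the highest ratio of the 4 on both diets.

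**Figure D2:**
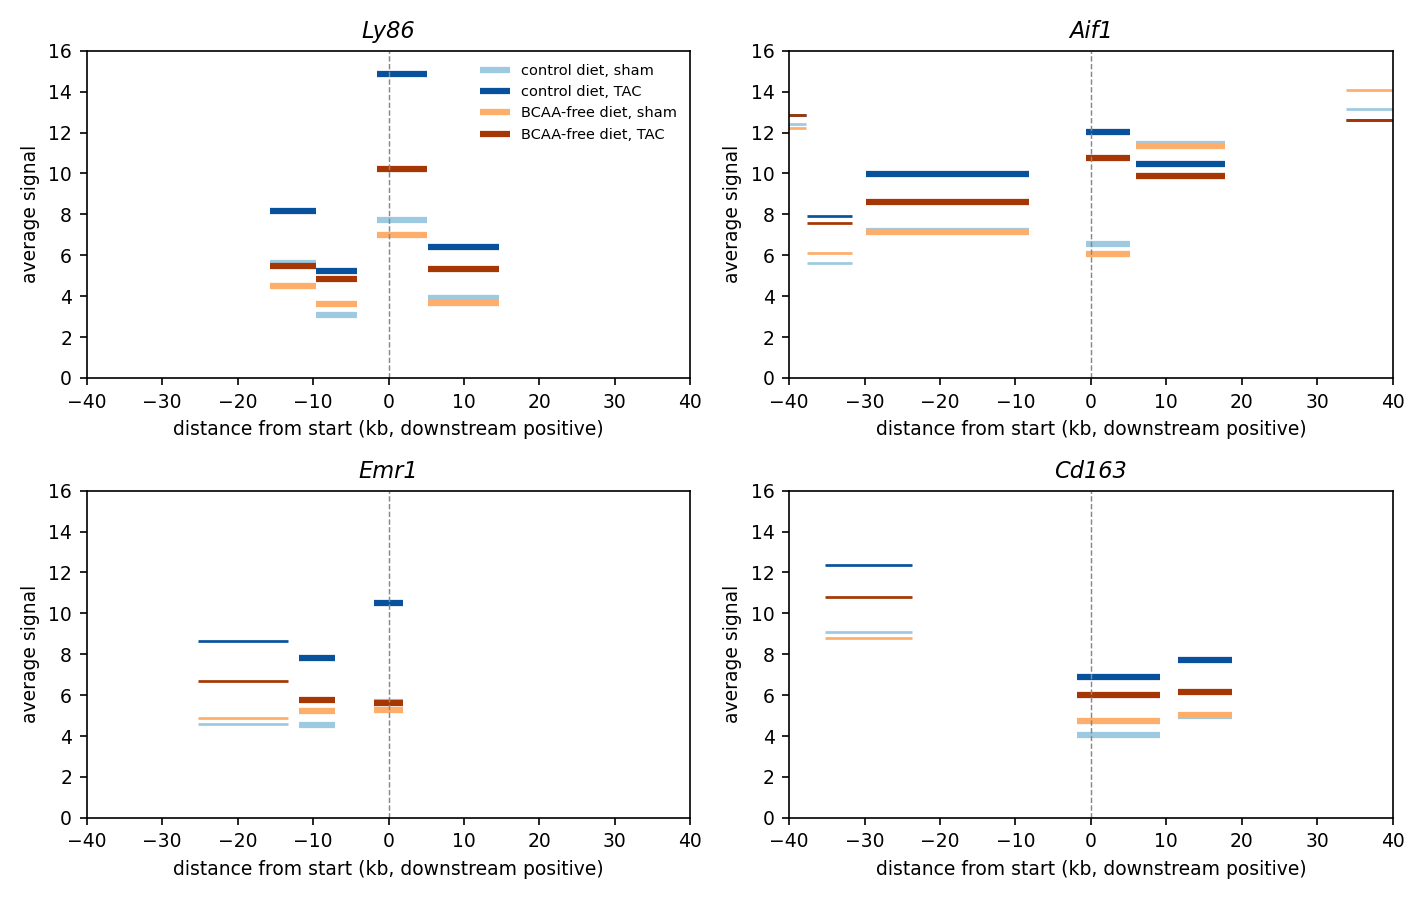
Average signal (vertical axis) of each merged region around the start of Ly86, Aif1, Emr1 and Cd163 (horizontal axis, kb from the start, downstream positive) in the 4 libraries. Thick bars list the gene and thin bars are neighbouring regions; bars of nearly equal height hide each other. At Aif1 the TAC libraries lie above the sham libraries at the start and below them in the next region downstream.

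Lyz2 encodes lysozyme of myeloid cells and lies beside its near copy Lyz1, listed in the same region of 12600 bases (chromosome 10, 117277800 to 117290399), so reads could be shared between the 2 genes. The signal was 6.55 in control sham, 8.56 in control TAC, 5.64 in BCAA-free sham and 6.66 in BCAA-free TAC. The TAC ratios, 0.34 (0.17 to 0.51) and 0.21 (0.02 to 0.39), were among the smaller of the 10.

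Cd68 encodes a lysosomal glycoprotein that is abundant in macrophages, but its region (chromosome 11, 69658400 to 69668199) also lists Fxr2, Sox15, Mpdu1, Mir1934, Eif4a1 and Senp3 and holds a CpG island. The signal was 16.4 in control sham, 17.8 in control TAC, 16.2 in BCAA-free sham and 15.0 in BCAA-free TAC. This was the highest level of the 10 genes in every library, and the TAC ratios of 0.11 (−0.03 to 0.25) and −0.11 (−0.25 to 0.04) were the lowest on both diets. The adjoining region, which lists 8 genes, had ratios of −0.18 and −0.33. The signal of both regions cannot be assigned to Cd68 alone.

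Among the receptors of resident macrophages, Cd163, which takes up haptoglobin-bound haemoglobin, had 4.06 in control sham, 6.87 in control TAC, 4.71 in BCAA-free sham and 5.99 in BCAA-free TAC (chromosome 6, 124302800 to 124313799). The TAC ratio was 0.64 (0.43 to 0.85) on the control diet and 0.29 (0.08 to 0.50) on the BCAA-free diet. No peak was called there in control sham. A second region within the gene had 0.54 and 0.25. Mrc1, the mannose receptor gene, had 4.90 in control sham, 7.78 in control TAC, 4.85 in BCAA-free sham and 5.91 in BCAA-free TAC over 26000 bases at its start (chromosome 2, 14227200 to 14253199), a region that also lists Tmem236 and Mir511. Its ratios were 0.58 (0.45 to 0.70), just under 1.5-fold, and 0.24 (0.10 to 0.37). A region beyond the end of Mrc1, 112285 bases from the start, had −0.09 and 0.26, both within counting error of 0. Lyve1 encodes a hyaluronan receptor that lymphatic endothelium carries as well. It had 5.88 in control sham, 7.31 in control TAC, 6.53 in BCAA-free sham and 6.82 in BCAA-free TAC over 37600 bases (chromosome 7, 110848600 to 110886199, with Rnf141 and Mrvi1). Its ratios, 0.27 (0.17 to 0.38) and 0.05 (−0.05 to 0.16), were the second lowest of the 10 genes on both diets. The lymphatic markers measured (Prox1, Pdpn, Flt4, Sema3d and Nrp2) had a median TAC ratio of 0.05 on the control diet and 0.06 on the BCAA-free diet. On either diet 0 of 5 were past 1.5-fold upward (2.83% and 0.85% of all genes) or downward (2.1% and 0.68%). On the control diet 4 of the 5 were above 0 (59.4% of all genes). Sema3d and Pdpn, at 0.26 each, were near Lyve1, and Prox1, the transcription factor that defines lymphatic endothelium, was lowest at −0.35.

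Ordered by signal in control sham, the genes ran from Cd163 (4.06) through Mrc1 (4.90), Emr1 (5.69), Lyve1 (5.88), Aif1 (6.53), Lyz2 (6.55), Csf1r (6.67), Laptm5 (7.08) and Ly86 (7.74) to Cd68 (16.4). All neighbours in this order from Cd163 to Ly86 had overlapping counting intervals, and Cd68 stood apart. In control TAC the order changed, and Ly86 (14.9), Aif1 (12.0), Csf1r (10.7) and Emr1 (10.5) followed Cd68 (17.8). Of the 10 nearest regions 4, those of Csf1r, Laptm5, Mrc1 and Lyve1, were longer than 25000 bases, a length reached for 11.6% of all genes. The long regions carried 563 to 1469 estimated tags per library, so their ratios have the narrowest intervals.

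Over all 21 regions the median TAC ratio was 0.54 on the control diet and 0.24 on the BCAA-free diet. Past 1.5-fold lay 8 of 21 on the control diet, against 4.38% of all regions, and 1 of 21 on the BCAA-free diet, against 1.41% of all regions. The 8 include the Ly86 region centred 6846 bases upstream, which had a peak call in the TAC libraries only. They also include the upstream Emr1 region and the Cd163 region at the start, which had a peak call in every library but control sham. Among the 16 regions without a CpG island the median on the control diet was 0.59 (−0.09 to 0.86), and all 8 regions past 1.5-fold were among them. Among the 5 regions with an island, which lay at Cd68, Aif1 and Lyve1, it was 0.11 (−0.18 to 0.42). On the BCAA-free diet the medians were 0.27 (0.05 to 0.74) without an island and −0.11 (−0.33 to 0.24) with one. Over all genes, 7.72% of those without an island at their nearest region and 0.997% of those with one passed 1.5-fold upward on the control diet, with medians of 0.07 and 0.04. Downward, 6.20% and 0.569% did so. Regions that list only the member had a median of 0.60 on the control diet and those that list other genes too 0.34. Peaks were called in 18 of the 21 regions in control sham (77.1% of all regions), 21 in control TAC (78.8%), 18 in BCAA-free sham (82.0%) and 20 in BCAA-free TAC (78.3%).

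**Figure D3:**
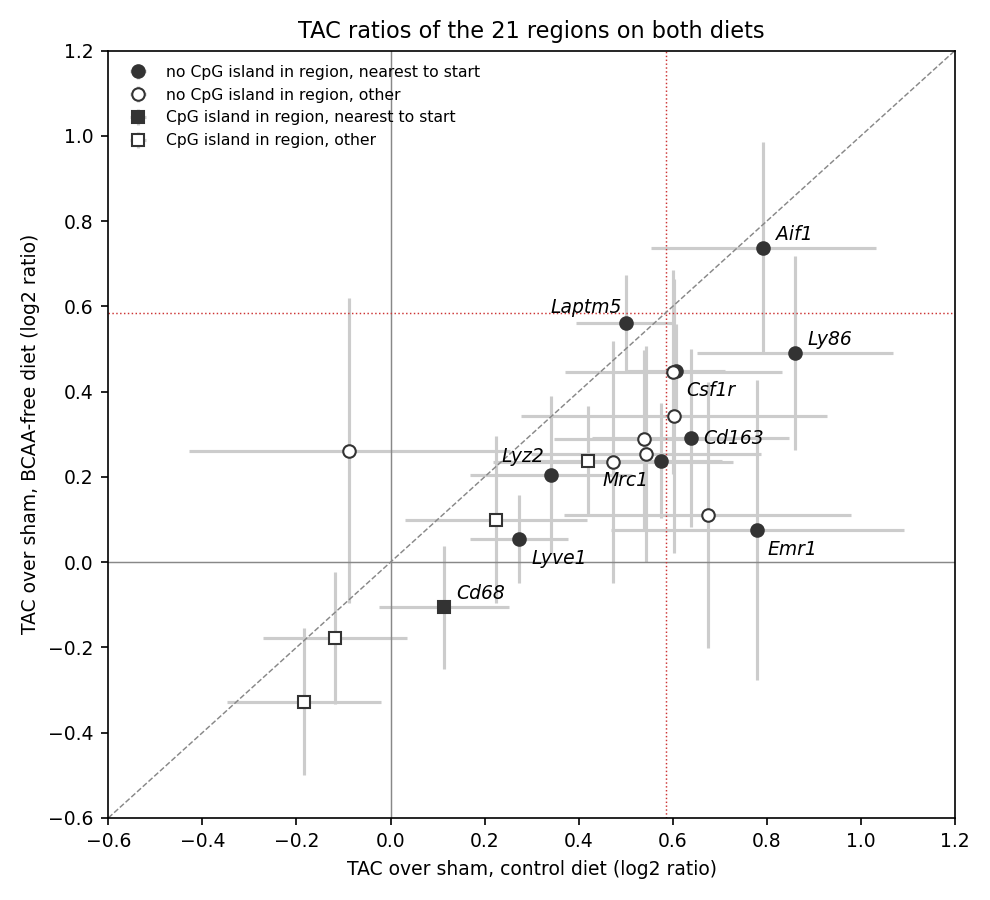
TAC over sham log2 ratio on the control diet (horizontal axis) and on the BCAA-free diet (vertical axis) for the 21 regions, with 95% counting intervals. Squares hold a CpG island, filled symbols are the regions nearest to the start, the dashed line marks equal ratios and dotted lines mark 1.5-fold. Of the 21 regions, 19 lie below the dashed line, and no square reaches 1.5-fold on either axis.

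The TAC ratio was larger on the control than on the BCAA-free diet for 9 of 10 genes and for 19 of 21 regions, against 64.0% of all genes and 61.6% of all regions. The BCAA-free minus the control ratio had a median of −0.22 over the genes (−0.70 to 0.06), against −0.07 over all genes. The counting interval of the difference lay below 0 for 7 of 10 genes, against 15.5% of all genes, and above 0 for 0 of 10 (5.73% of all genes). These counts depend on how the libraries were scaled, which is not given. With equal medians the median difference was −0.15, Csf1r had −0.09 and Aif1 turned to 0.01. With quantile normalisation these were −0.14, −0.08 and 0.03. Intervals were not recomputed after rescaling. The widest differences were at Emr1, with −0.70 (−1.17 to −0.23), at Ly86, with −0.37 (−0.68 to −0.06), and at Cd163, with −0.35 (−0.64 to −0.05). The Emr1 region, counted among the 7, had a peak call in the control-diet libraries only, so its value is no support for a difference between diets. Those of Aif1 (−0.06), Lyz2 (−0.14) and Laptm5 (0.06) had intervals that include 0. By peak height, 7 of 10 genes had the larger TAC ratio on the control diet, and Laptm5, Lyz2 and Lyve1 the larger one on the BCAA-free diet. The share of all genes was not computed for peak height, so this count is no result about these genes. The median TAC ratio by peak height was 0.46 on the control diet and 0.59 on the BCAA-free diet. With 1 library per group, this dependence on diet could not be tested.

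By diet, the signal differed more after TAC than after sham for 7 of the 10 genes, all but Laptm5, Cd163 and Lyve1. The share of all genes with this order was not computed, so the count cannot be set against it. In TAC hearts the BCAA-free library was lower than the control library for 10 of 10 genes (median −0.22, −0.80 to −0.09, against −0.04 over all genes), whereas 40.8% of all genes had a ratio above 0. The counting interval lay below 0 for 7 of 10 genes, against 17.2% of all genes. The interval lay above 0 for 0 of 10 (6.6% of all genes). Emr1, at −0.80 (−1.11 to −0.49), was the 1 gene lower by 1.5-fold, against 0.488% of all genes, with 0 higher (0.402%), and ranked 17619 of 17640. Its region, also counted among these 7, had a peak call in the control-diet libraries only, so this ratio is no support for a difference between diets. Ly86 followed with −0.50 (−0.69 to −0.30), Mrc1 with −0.35 and Lyz2 with −0.32. In sham hearts the median was −0.08 (−0.24 to 0.18), against 0.04 over all genes, and 2 of 10 ratios were above 0 (57.7% of all genes). There 0 of 10 genes passed 1.5-fold in either direction (1.03% of all genes higher, 0.488% lower). Laptm5, lower on the BCAA-free diet, and Lyve1, higher at 0.13 (0.03 to 0.24), were the 2 genes whose interval excluded 0, against 11.6% of all genes below 0 and 16.1% above. The BCAA-free sham library was the lowest of the 4 for 7 of 10 genes (20.1% of all genes). These diet ratios share libraries with the TAC ratios above and are no separate evidence: the control TAC library enters both the TAC ratio of the control diet and the diet ratio of TAC hearts, and it was the highest of the 4 libraries for 10 of 10 genes, against 33.4% of all genes.

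Other genes of macrophages and monocytes were higher in the TAC libraries as well. Of 35 such genes, also chosen with earlier results of these data known, 31 were measured, in part in shared regions (C1qa, C1qb and C1qc share 1). All 31 ratios were above 0 on the control diet (59.4% of all genes) and 29 on the BCAA-free diet (43.0%). Their median TAC ratio was 0.54 on the control diet, against 0.05 over all genes. Past 1.5-fold, 13 of 31 were higher (2.83% of all genes) and 0 lower (2.1%). On the BCAA-free diet the median was 0.37, against −0.03 over all genes, with 3 of 31 higher (0.85%) and 0 lower (0.68%). Fcgr1, a high-affinity Fc receptor gene, led on the control diet with 1.13, followed by the lysosomal protease gene Ctss with 0.94. The lowest was the metal transporter gene Slc11a1 with 0.05, in a region with 5 other genes. On the BCAA-free diet Ms4a7 (0.73) and Ctss (0.64) led, and the Fc receptor subunit gene Fcer1g was lowest at −0.01. Of 13 further genes known from resident heart macrophages 11 were measured, with a median of 0.37 on the control diet (2 higher past 1.5-fold) and 0.14 on the BCAA-free diet (0 higher). Vsig4, a complement receptor gene, had 1.00 and 0.44, but its nearest region is centred 52939 bases from its start and lists 2 other genes. Clec10a, a C-type lectin gene, had 0.71 on the control diet, and Gas6, the ligand of the engulfment receptor Mertk, was lowest there with 0.04. Timd4, often used to define resident heart macrophages, had no region.

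Markers of other cells give the setting of these values. Over all genes the median TAC ratio was 0.05 on the control diet and −0.03 on the BCAA-free diet. Past 1.5-fold, 2.83% of all genes were higher and 2.1% lower on the control diet, and 0.85% and 0.68% on the BCAA-free diet. The 8 genes of all leukocytes had a median TAC ratio of 0.50 on the control diet (4 of 8 past 1.5-fold) and 0.35 on the BCAA-free diet (1 of 8), and their summed signal was 54.3, 74.5, 51.7 and 63.7 in the order control sham, control TAC, BCAA-free sham and BCAA-free TAC. On the control diet Cd52 (0.89) and Was (0.64) were highest and Hcls1 (−0.04) lowest. The 9 measured markers of T, B and NK cells had a median of 0.15 on either diet, with 3 of 9 higher past 1.5-fold on the control diet and 1 of 9 on the BCAA-free diet. The 3 were the B cell gene Ms4a1, at 0.91 in a region with 2 other genes, and the T cell receptor subunit genes Cd3d and Cd3g, at 0.66 in a region they share. The B cell gene Cd79b was lowest at −0.47. Of 10 neutrophil markers 3 had a region (Csf3r, Elane and Ngp), with ratios of 0.98, 0.25 and 0.08 on the control diet. Cardiomyocyte markers, of which 11 of 12 were measured, had medians of −0.64 (6 of 11 lower past 1.5-fold) and −0.33 (0 of 11), and a summed signal of 117, 77.3, 108 and 87.8 in the same order of libraries. On the control diet the titin gene Ttn was lowest at −0.92, and Tnni3 (0.26) and Myl2 (−0.22), both in regions with other genes, were highest. Endothelial markers had medians of −0.14 and −0.08, with Emcn (0.19) and Vwf (0.14) highest and Sox17 (−0.40) lowest on the control diet. Fibroblast markers had 0.19 and −0.14, with Postn (0.65) and Tcf21 (0.35) highest and Pdgfra (0.01) lowest there. Like the macrophage genes, 10 of 10 fibroblast markers were above 0 on the control diet (59.4% of all genes), and 3 of 10 were on the BCAA-free diet (43.0%). The part of these cell types in the macrophage gene values was not tested.

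**Figure D4:**
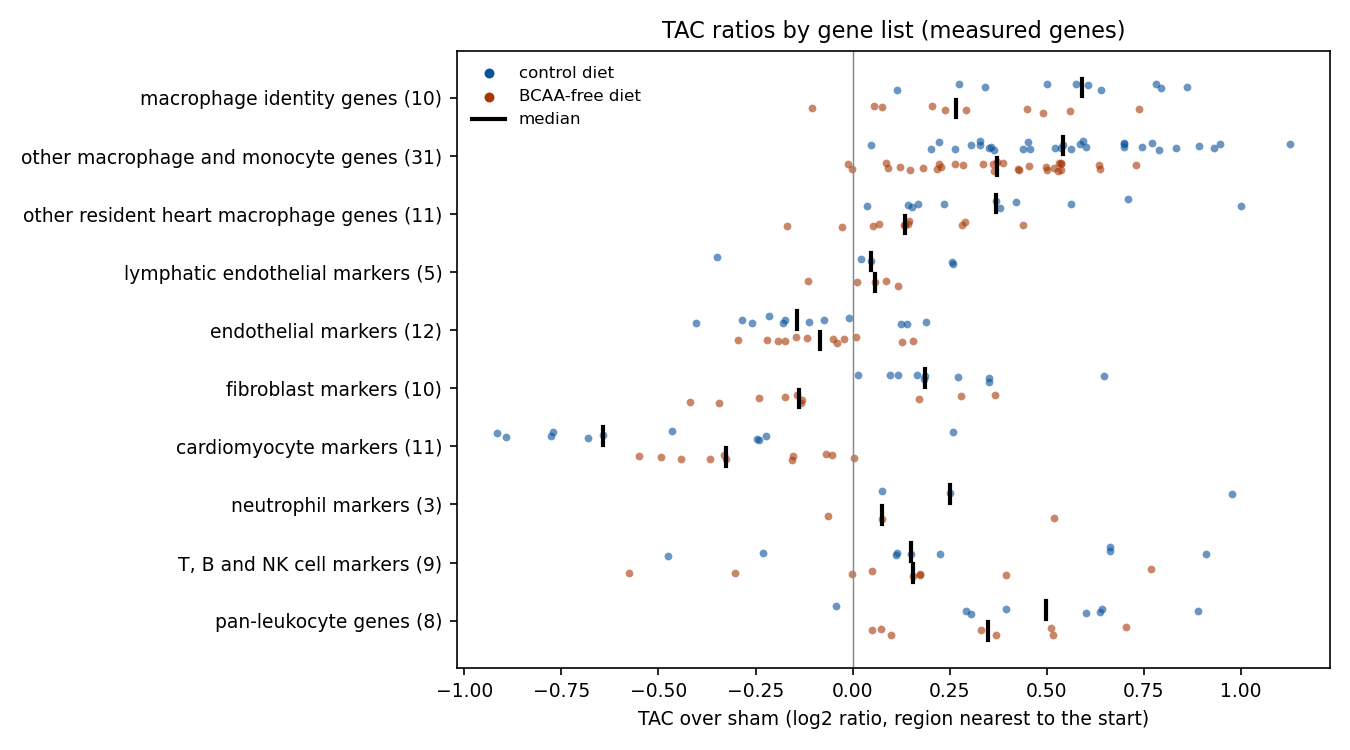
TAC over sham log2 ratio (horizontal axis) of each measured gene in 10 lists (vertical axis, number of genes in brackets) on the control diet (blue) and the BCAA-free diet (brown). Points are genes, black bars are medians. The medians of the cardiomyocyte and endothelial lists lie to the left of 0 on both diets. That of the fibroblast list lies to the left on the BCAA-free diet only. Those of the other lists lie to the right of 0 on both diets.

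The profile over the 4 libraries was also compared with that of other genes. Each log2(signal + 1) was centred on its mean over the 4 libraries, and the mean profile of the 10 genes was −0.19 in control sham, 0.36 in control TAC, −0.24 in BCAA-free sham and 0.06 in BCAA-free TAC. Mrc1 lay closest to this mean (Euclidean distance 0.05) and Cd68 farthest from it (0.42). Among 4136 other genes with a region centred within 2500 bases of the start and a signal above the median, the 5 least distant were the kinase gene Csk (0.04), Anln (0.05), the phosphoinositide kinase gene Pik3cd (0.07), Zfp658 (0.08) and Atp13a2 (0.08). Their TAC ratios were 0.46 to 0.55 on the control diet and 0.24 to 0.36 on the BCAA-free diet. With 4 libraries this is a description of likeness only.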

How the data were processed

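The authors deposited 1 table of merged peak regions, with coordinates in mm10. The submitters' processing notes name BWA, MACS2 and mm10 with no version or role. How libraries were scaled to one another is not given. Per the file headers, each region has an average signal and a peak height per library, a 0 or 1 for a peak call (a score of presence), a larger tag number per library pair (a score) and log2 ratios. The deposited log2 ratios equalled the log2 quotient of the average signals to within 4.44e-16, and the deposited tag number score equalled the average signal times length divided by 224, which was used to estimate tags per library. The median was 198 to 205 estimated tags per region and the median average signal 6.80 to 7.10, over 29210 regions. There is no input library, so ratios show regions relative to each other.

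Ratios were log2((A + 1)/(B + 1)) with no filter, a scale that understates ratios of low signal. Intervals are 95% intervals from estimated tags by the delta method, for counting error only. They were tested only on counts simulated from the same counting model, which cannot show that the model holds for these data. The estimated tags are not whole numbers. Past 1.5-fold is a rule of size. Gene symbols were matched to the table directly or through older symbols in RefSeq (GRCm38.p6), as for Spi1, listed as Sfpi1. The members and gene lists were chosen with earlier results of these data known. Named genes were all members in every region and, of each other list, the 2 highest and the lowest in the comparison spoken of (ties in a shared region included). Timd4, Flt4, Nrp2 and the C1q genes were named after their values were seen. Alternatives were no pseudocount, 2 rescalings, peak height, another region per gene, members alone in a region, a signal filter and a 1.3-fold rule. Python 3.11.15, NumPy 2.4.6 and pandas 2.3.3 were used.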

Additional observations from a re-analysis of the deposited data

How the results depend on the processing

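Each group has 1 library, so these values cannot be set against replicate spread, and the cause of the differences between settings was not tested. No paired analysis was possible because each group has 1 library and no replicate number pairs them. A fit of surgery with diet as a block, which would take the diets as replicates and leave 1 residual degree of freedom, was not run. With peak height, the median TAC ratio was 0.46 on the control diet and 0.59 on the BCAA-free diet, with 4 and 5 members higher past 1.5-fold (8.29% and 4.42% of all genes), 1 lower on the BCAA-free diet in sham (2.49%) and 2 lower in TAC (3.27%). Lyve1 then turned to −0.11 on the control diet and Emr1 to −0.09 on the BCAA-free diet. With the 4 members alone in their region, the medians were 0.71 (3 higher) and 0.39 (0 higher) for TAC on the control and BCAA-free diets, −0.34 for diet in TAC and −0.36 for the difference between diets. With the region of highest signal, 3 and 0 members were higher after TAC on the control and BCAA-free diets, Aif1 turned to −0.12 and −0.18, the values of the region that lists Prrc2a, and Cd68 to −0.18 on the control diet. With the 5 members above the median signal, 3 were higher on the control diet, the BCAA-free median was 0.49 and 0 were lower by diet in TAC. The share of all genes was not computed for these choices of members and region, so their counts are no result about these genes. With no pseudocount, equal medians or quantile normalisation, 2 members were higher on the BCAA-free diet (1.28% to 1.66% of all genes). With a 1.3-fold rule 4 were higher there (3.59%) and 2 lower by diet in TAC (2.9%). Over all regions, rescaling moved the split of calls for TAC on the BCAA-free diet from 413 higher and 693 lower to 599 and 472 (equal medians) or 614 and 563 (quantile), for diet in sham from 791 and 400 to 606 and 497 or 501 and 530, and for diet in TAC from 277 and 281 to 343 and 232 (equal medians). The 2 Emr1 regions hold few tags, which widens their intervals. Under all of these alternatives the median TAC ratios stayed above 0 and the median of the per-gene differences between diets below 0. The order of the diets did not hold under all of them. By peak height the median TAC ratio was larger on the BCAA-free diet (0.59) than on the control diet (0.46).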

Other observations

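Regions within 100 kb of the starts of the 10 genes that list none of them were read as well, 38 in all, a set added after the data were seen. Their median TAC ratio was 0.16 on the control diet and 0.05 on the BCAA-free diet. On the control diet 6 of 38 were higher past 1.5-fold, against 4.38% of all regions, and on the BCAA-free diet 1 of 38, against 1.41% of all regions. Upstream of Mrc1, 3 regions that list only Tmem236 had ratios of 0.45 to 0.66 on the control diet and 0.26 to 0.52 on the BCAA-free diet. Around Cd163, 3 flanking regions had 0.39 to 0.61 and 0.27 to 0.41. A region from −25.3 to −13.3 kb relative to the start of Emr1 lists only Vav1, a signalling gene of blood cells, and had 4.59 in control sham, 8.65 in control TAC, 4.90 in BCAA-free sham and 6.68 in BCAA-free TAC. Its TAC ratio was 0.79 on the control diet and 0.38 on the BCAA-free diet, the latter above that of the Emr1 regions. Around Cd68, 8 flanking regions had a median of −0.01 on the control diet. A region among them without a listed gene was the 1 region past 1.5-fold on the BCAA-free diet, with 1.06. It is short, from −55.7 to −54.1 kb relative to the start of Cd68. Its signal was 3.075 in control sham, 3.07 in control TAC, 2.605 in BCAA-free sham and 6.52 in BCAA-free TAC. Counting intervals were not computed for the flanking regions. Around Csf1r, 2 regions had 0.12 and 0.14 on the control diet.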
